A study of Mus musculus with 14 samples.

Results

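Interferon-stimulated genes were examined as families in myeloid cells that had entered brain metastases (BrM) of breast cancer in mice. A gene was taken when its symbol in the probe annotation began with Ifit, with Oas, with Ifi followed by a digit or with Gbp followed by a digit, or when it was Mx1, Mx2, Isg15, Isg20, Rsad2, Bst2, Irf7, Usp18, Cmpk2, Ddx58, Ifih1, Rtp4, Zbp1, Xaf1 or Stat2. This gave 64 of 19057 named genes. The rule used symbols alone. Where a gene had several probes, the one brightest on average over the arrays stood for it, and all values are log2 signals as deposited.

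Interferons are secreted proteins that cells release when they sense viral or self nucleic acids. Type I interferons bind the Ifnar receptor on nearly every cell, and a complex that holds Stat2 and Irf9 then binds interferon-stimulated response elements (ISRE) in promoters. Interferon gamma, made mostly by T and NK cells, acts at gamma-activated sites (GAS), and guanylate-binding proteins and the chemokine Cxcl9 are among its classic targets. Macrophages, monocytes and neutrophils all respond to both.

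The cells were GFP+CD11b+, that is, they carried green fluorescent protein (under the Ubiquitin C promoter) and the myeloid integrin CD11b. In tumor-bearing mice they were progeny of transplanted marrow. Per the labels and methods, recipients of the marrow were lethally irradiated C57Bl/6J mice. The main text of the paper does not say whether the naïve mice had been irradiated and transplanted. All samples are labelled 14 weeks old, and the total number of arrays was 14. PyMT or EO771 mouse breast cancer cells, without a tag, had been placed directly into the brain, so the lesions are implanted models of BrM harvested about 2 weeks later. PyMT tumors (PyMT-Br) gave 4 arrays, spleens of PyMT-bearing mice (PyMT-S) gave 3, their bone marrow (PyMT-BM) gave 1, and EO771 tumors (EO771-Br), spleens of naïve mice (naïve-S) and marrow of naïve mice (naïve-BM) gave 2 each. Naïve mice stood in because viable spleen and marrow cells could not be recovered from mice with EO771 tumors. The tumor line, the use of tumor-bearing or naïve controls and the set of mice therefore cannot be told apart in a comparison of EO771-Br with PyMT arrays. The titles of the naïve-BM arrays share a mouse code, and 1 EO771-Br array carries the numbers of 2 animals, so p-values measure the spread between arrays, part of which may be technical.

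Before the results, 1 array has to be set apart. PyMT-S 2 differed from PyMT-S 1 and PyMT-S 3 with a standard deviation of 1.07 and 1.10 on the log2 scale over 21705 probes, whereas the other pairs of 1 condition gave 0.302 to 0.654. Its neutrophil markers, a list of 10 genes that includes Ngp and S100a8, averaged 12.57 against 11.71 and 11.35 in the other PyMT spleens and 12.49 to 12.54 in marrow. The same list averaged 6.16 to 9.15 in PyMT-Br, 6.24 and 6.33 in EO771-Br and 11.46 and 11.41 in naïve-S. Macrophage markers (6 genes) ran from 11.50 to 11.84 in PyMT-Br, 11.08 and 11.37 in EO771-Br and 8.21 to 10.80 in spleen and marrow. On PyMT-S 2 they averaged 8.45, against 10.30 and 10.18 in the other PyMT spleens and 8.21 to 9.20 in marrow. B cell markers (2 genes) averaged 6.46 on PyMT-S 2, against 9.69 and 9.47 in those spleens and 6.16 to 7.12 in marrow. Microglial markers (5 genes) averaged 8.83 to 9.35 in PyMT-Br, 7.86 and 8.52 in EO771-Br and 4.27 to 4.89 elsewhere, although GFP marks donor cells. This gap lay in Fcrls, Olfml3 and Tmem119. P2ry12 read 5.29 to 6.33 in PyMT-Br, 5.94 and 6.07 in EO771-Br and 4.78 to 6.13 elsewhere. Sall1 read 5.15 to 5.76, 5.32 and 5.40, and 4.40 to 5.73. Itgam, which encodes CD11b, lay between 5.74 and 8.87 on every array. These arrays hold mixtures, and fewer cells of a type cannot be told apart from less RNA per cell. The part of this mixture in the results that follow was not tested.

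Of the 64 genes, 40 had a condition mean above the median of all values, 4.06, in all 6 conditions. Another 9 lay below it in all 6, namely Gbp4, Gbp6, Gbp8, Gbp11, Ifi209, Ifi27l2b, Ifit1, Oas1e and Oas1f, and for these dim probes no statement on presence is made. The mean over all 64 genes was 8.25 and 8.36 on the EO771-Br arrays. It was 5.90, 6.52, 6.92 and 6.71 on PyMT-Br 1 to 4, 6.14, 6.21 and 5.94 on PyMT-S 1 to 3, 6.32 on PyMT-BM, 6.63 and 6.28 on naïve-S and 6.17 and 6.30 on naïve-BM. Both EO771-Br arrays stood above the other 12 arrays in 36 of the 64 genes, against 6.15% of all named genes. The heat map of the 64 genes shows this as a pair of bright columns.

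**Figure D1:**
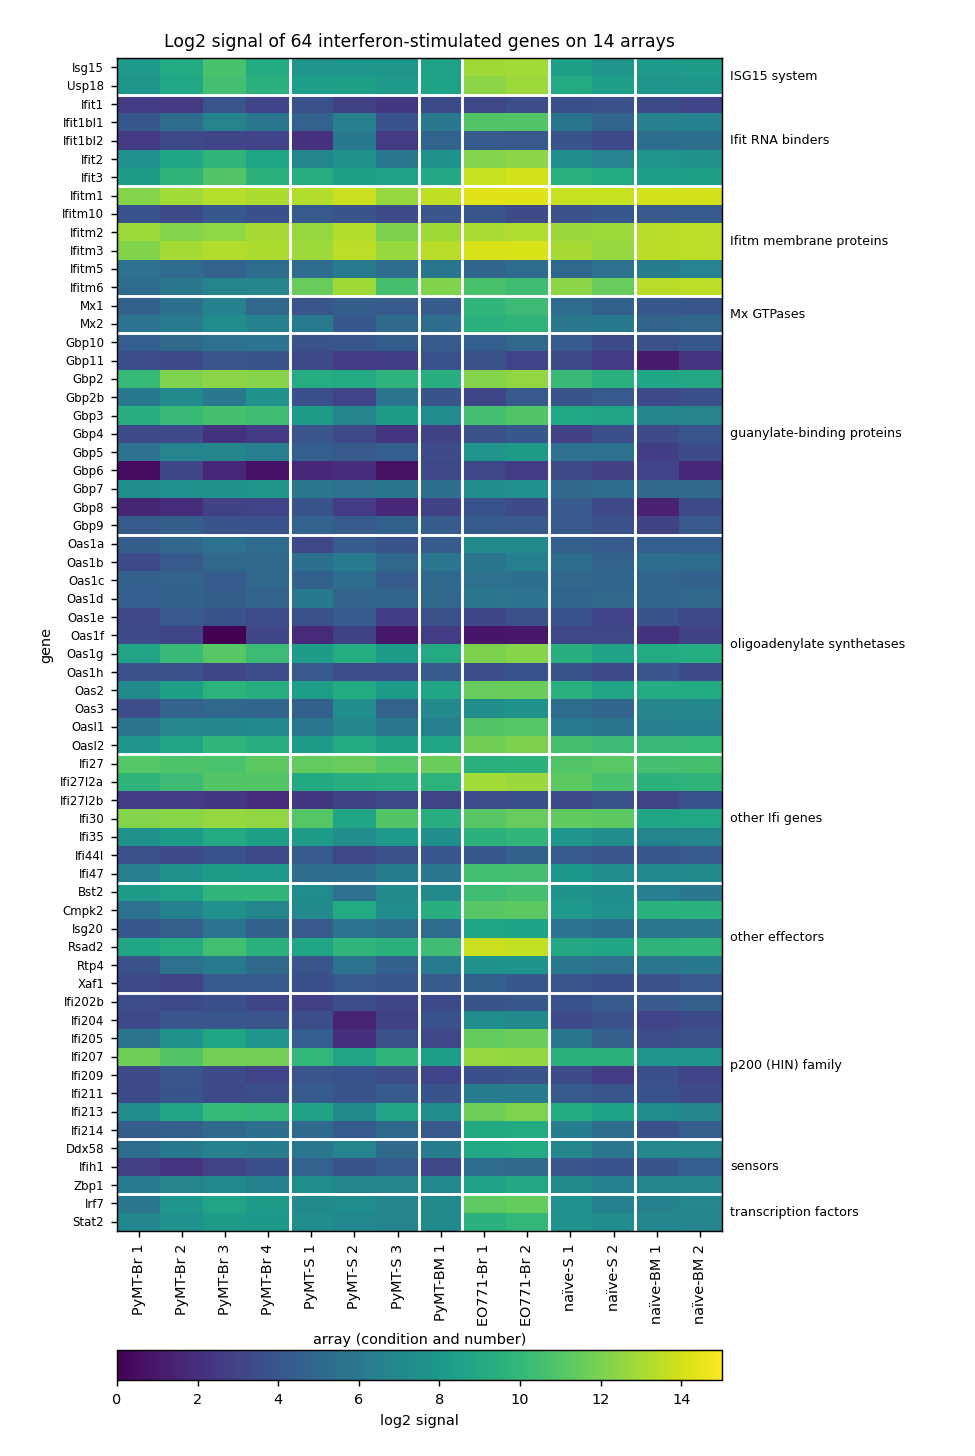
Log2 signal (colour) of the 64 interferon-stimulated genes (rows, grouped by family, white lines between families) on the 14 arrays (columns, white lines between conditions). Both EO771-Br columns are brighter than the other 12 in 36 of the rows, among them Isg15, Mx1, Rsad2, Ifit3 and Irf7, while Ifitm6 is dimmest in PyMT-Br.

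Promoter windows illustrate what many of these genes have in common in sequence. RefSeq windows (GRCm38.p6) of 300 bases, from 250 before to 50 after a start site, matched 45 of the 64 genes. The ISRE core, searched as GAAANNGAAA or its reverse complement TTTCNNTTTC, was found in 26 of the 45 genes (57.8%) and in 3.99% of all 27025 genes with a window. The GAS core, TTCNNNGAA, which reads the same on both strands, was found in 10 of the 45 genes (22.2%) and in 9.55% of all genes. Matches to the cores may overlap each other, and a match describes letters in the window and nothing more. All 5 guanylate-binding protein genes with a window held the ISRE core, as did 4 of 5 Ifit genes, 5 of 7 p200 genes and 4 of 8 Oas genes. Windows are shown for the genes that passed the test below in the most comparisons (4 comparisons each), read along the gene's strand with cores in capitals. Positions count bases from the start site.
Gbp5, chr3:142496684-142496983, plus strand, ISRE core at -165 and GAS cores at -245 and -52: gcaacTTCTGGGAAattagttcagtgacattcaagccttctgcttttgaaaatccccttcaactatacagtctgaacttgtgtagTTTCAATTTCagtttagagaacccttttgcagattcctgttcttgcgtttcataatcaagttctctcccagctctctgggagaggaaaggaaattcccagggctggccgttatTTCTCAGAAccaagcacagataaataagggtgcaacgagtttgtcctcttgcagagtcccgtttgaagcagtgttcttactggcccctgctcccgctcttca
Gbp7, chr3:142530086-142530385, plus strand, ISRE core at -53 and GAS cores at -106 and -87: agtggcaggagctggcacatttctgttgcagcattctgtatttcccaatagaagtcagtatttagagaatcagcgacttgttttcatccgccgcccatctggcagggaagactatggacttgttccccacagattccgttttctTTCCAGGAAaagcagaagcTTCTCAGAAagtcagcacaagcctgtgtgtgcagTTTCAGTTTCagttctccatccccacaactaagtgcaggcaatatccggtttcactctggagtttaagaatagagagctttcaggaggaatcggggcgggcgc
Ifi207, chr1:173741760-173742059, minus strand, ISRE core at -41: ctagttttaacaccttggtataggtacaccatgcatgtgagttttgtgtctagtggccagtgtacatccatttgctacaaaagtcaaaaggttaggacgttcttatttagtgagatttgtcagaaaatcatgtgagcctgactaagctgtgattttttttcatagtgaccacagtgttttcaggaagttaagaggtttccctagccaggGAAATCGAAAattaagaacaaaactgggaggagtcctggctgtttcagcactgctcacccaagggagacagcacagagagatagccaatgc
Oasl1, chr5:114922990-114923289, plus strand, neither core: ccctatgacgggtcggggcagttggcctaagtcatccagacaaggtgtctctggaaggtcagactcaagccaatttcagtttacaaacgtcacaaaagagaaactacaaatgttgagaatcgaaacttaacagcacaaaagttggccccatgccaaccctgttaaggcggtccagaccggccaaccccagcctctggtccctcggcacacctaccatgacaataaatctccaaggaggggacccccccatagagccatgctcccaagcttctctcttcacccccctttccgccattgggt

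In EO771-Br, the classic antiviral families were far above naïve spleen. The Mx GTPases, the Ifit RNA binders, Isg15, its protease Usp18, Rsad2 (viperin, which makes a chain-terminating nucleotide) and the p200 family of nucleic acid sensors had called members, higher by 2.09 to 6.34 on the log2 scale. A gene was called when limma gave an adjusted p under 0.01, with Benjamini-Hochberg adjustment over all 45281 probes. EO771-Br minus naïve-S called 22 of the 64 genes higher and 1 lower, where 1.68% of all named genes were called higher and 1.17% lower. The median difference of the 64 genes was 1.90, and that of all genes was 0.00. These calls lean on few arrays, since leaving out EO771-Br 1, EO771-Br 2 or naïve-S 2 left 4 calls, leaving out naïve-S 1 left 8, and only Mx1, Oasl1, Rsad2 and Gbp7 passed in all 14 fits without 1 array.

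The Mx and Oas families encode GTPases that trap viral capsids and enzymes that make the activator of RNase L. Mx1 read 9.88 and 10.31 in EO771-Br, 5.36 and 4.67 in naïve-S and 4.16 and 4.00 in naïve-BM. Every EO771-Br value was above every other array, and the difference from naïve-S was 5.08 ± 0.51 (SE, adjusted p = 0.000216). Mx2 rose by 3.65 ± 0.57 (adjusted p = 0.00305), so both Mx genes were called. Oasl1, a synthetase-like protein without that enzyme activity, read 10.98 and 11.07 in EO771-Br and 6.16 and 5.81 in naïve-S. Its difference of 5.04 ± 0.44 had the smallest adjusted p of the 64 genes here, 8.88e-05. Among the 12 Oas genes only Oasl1 and Oas1a (2.72 ± 0.41) were called against naïve-S, and the median of the family was 1.30. Oas1g, the brightest probe of the family, read 12.04 and 12.25 against 9.44 and 8.65, which just missed the threshold (adjusted p = 0.0109), while its second probe was called (3.62 ± 0.66, adjusted p = 0.00794).

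Ifit proteins bind foreign RNA ends. Of the 5 measured Ifit genes, 3 were called higher in EO771-Br than in naïve-S. Ifit1bl1 read 10.92 and 10.91 against 5.86 and 4.87, a difference of 5.55 ± 0.84 (adjusted p = 0.00253). Ifit2 read 12.21 and 12.40 against 7.49 and 6.66, and Ifit3 read 13.74 and 13.96 against 9.58 and 9.16. The groups did not overlap for any of the 3, and the share of all named genes without overlap was not counted. Ifit1 lay between 2.40 and 3.99 on all arrays and stayed below the median of the array. The ubiquitin-like modifier Isg15 read 12.84 and 12.91 in EO771-Br and 8.48 and 7.82 in naïve-S, a difference of 4.72 ± 0.60 (adjusted p = 0.000962). Usp18, which removes Isg15 from proteins and damps the receptor, read 12.37 and 12.81 against 9.16 and 8.34.

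Rsad2 was among the brightest genes in EO771-Br. It read 13.78 and 13.65 there, 9.04 and 8.79 in naïve-S and 9.78 and 9.82 in naïve-BM, a difference from naïve-S of 4.80 ± 0.47 (adjusted p = 0.0002). Isg20, an RNA exonuclease, was also called (3.19 ± 0.52), whereas Cmpk2, a nucleotide kinase that neighbours Rsad2 in the genome, read 11.09 and 11.22 against 8.04 and 7.52 and missed the threshold (adjusted p = 0.0119). In the p200 family, 5 of 8 genes were called higher. Ifi205 read 11.44 and 11.62 in EO771-Br and 5.82 and 4.57 in naïve-S, an increase of 6.34 ± 0.89 (adjusted p = 0.00168) and the largest of the 64 genes. Ifi204, Ifi207, Ifi211 and Ifi214 rose by 2.09 to 3.68. The p200 genes lie in 1 cluster of near copies, so their probes may share transcripts.

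Both transcription factors were called. Irf7, the factor that amplifies type I interferon production, read 11.30 and 11.44 in EO771-Br against 7.57 and 6.59 in naïve-S (4.29 ± 0.69, adjusted p = 0.00385). Stat2 rose by 2.29 ± 0.39. Zbp1, a sensor of Z-form nucleic acid, read 8.59 and 9.08 against 7.07 and 6.59 and was the only called sensor of 3. Of the guanylate-binding proteins, Gbp5 (2.37 ± 0.39) and Gbp7 (2.23 ± 0.26) were called and 9 of 11 were not. The single gene called lower was Ifi27, a mitochondrial protein with 9.54 and 9.66 against 10.91 and 11.19 (-1.45 ± 0.26, adjusted p = 0.00776). Its second probe had the same sign and was not called (-1.47 ± 0.30, adjusted p = 0.0156).

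Of the 6 Ifitm genes, whose best-known members block viral fusion, none was called by its brightest probe in EO771-Br minus naïve-S. Ifitm1, Ifitm2 and Ifitm3 were bright on all arrays, and Ifitm10 lay between 3.41 and 4.30. Ifitm1 read 14.32 and 14.29 in EO771-Br and 13.72 and 13.71 in naïve-S, close to the top of the scale at 14.58. Its probes disagreed. The second brightest and the fourth brightest were called lower in EO771-Br than in naïve-S, by -2.33 ± 0.44 and -2.65 ± 0.42, so no direction is given for Ifitm1.

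EO771-Br minus naïve-BM called 29 of the 64 genes higher and 0 lower, where 3.07% of all named genes were called higher and 3% lower, and 3 of the 64 were lower at an unadjusted p under 0.05. The median of the 64 was 1.92. Ifi205 rose by 7.86 ± 0.89, Mx1 by 6.02 ± 0.51 and Ifit3 by 5.42 ± 0.63. Gbp2 and Gbp3, which were not called against naïve spleen, rose here by 3.44 ± 0.63 and 3.91 ± 0.50. Gbp5 read 7.84 and 8.20 in EO771-Br, 5.62 and 5.68 in naïve-S and 2.81 and 3.41 in naïve-BM. The EO771-Br arrays are shared by both comparisons. Leaving out EO771-Br 1, EO771-Br 2, naïve-BM 1 or naïve-BM 2 left 16, 15, 14 and 16 calls.

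**Figure D2:**
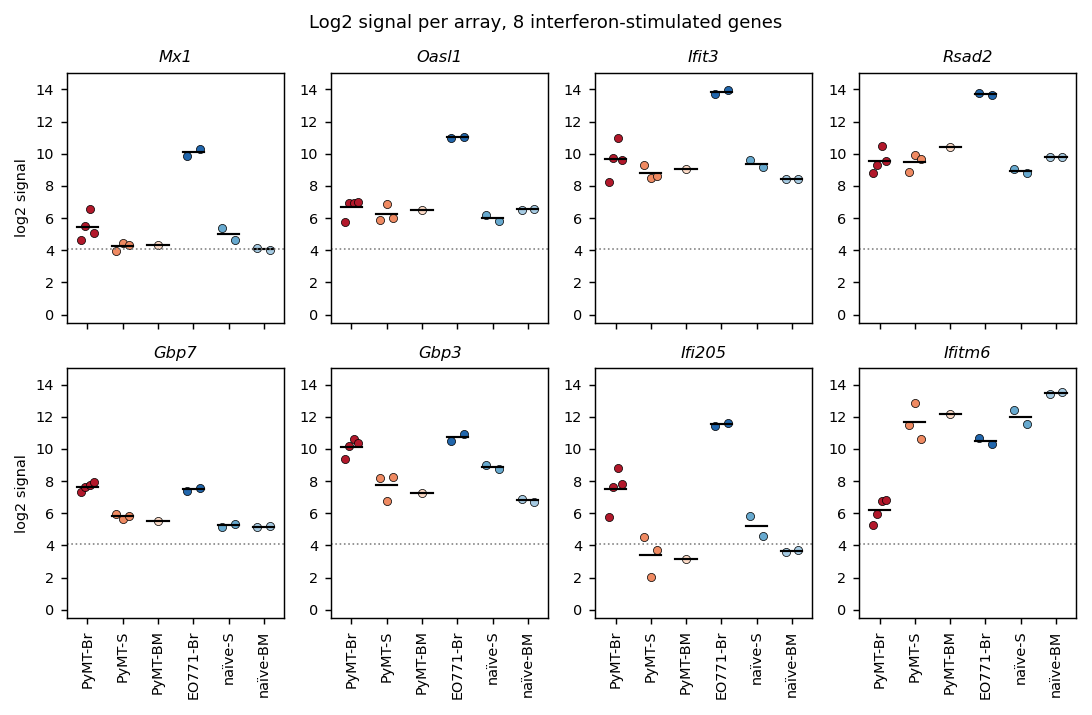
Log2 signal per array (points) with the condition mean (bar) for 8 genes in the 6 conditions, and the median of all values as a dotted line. Mx1, Oasl1, Ifit3 and Rsad2 are high in both EO771-Br arrays only, Gbp7 and Gbp3 are high in both kinds of BrM, and Ifitm6 is low in the 4 PyMT-Br arrays.

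In PyMT-Br the genes called above PyMT spleen were 4 guanylate-binding proteins, Ifi205, Ifi207, Bst2 and Ifi30. PyMT-Br minus PyMT-S called 8 of the 64 genes higher and 1 lower, where 3.63% of all named genes were called higher and 2.45% lower. The median of the 64 was 0.19 and that of all genes was -0.01. Without PyMT-S 2 the comparison called 7 higher and 1 lower, and Bst2 and Gbp2 missed the threshold (adjusted p = 0.0146 and 0.0245). Titles give 3 PyMT-Br and PyMT-S pairs the same mouse code, and with that code as a fixed block over the 3 pairs 1 gene was called.

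Guanylate-binding proteins are large GTPases that coat and break open vacuoles holding microbes, and 4 of 11 were called higher in PyMT-Br than in PyMT-S. Gbp7 read 7.35, 7.62, 7.73 and 7.93 in PyMT-Br and 5.98, 5.66 and 5.82 in PyMT-S, a difference of 1.84 ± 0.20 (adjusted p = 0.000187). Gbp3 read 9.40, 10.19, 10.62 and 10.39 against 8.19, 6.77 and 8.23 (2.42 ± 0.38, adjusted p = 0.00184). Gbp5 read 5.59, 6.71, 6.88 and 6.43 against 4.47, 4.18 and 4.48 (2.03 ± 0.30, adjusted p = 0.00133). No array overlapped for these genes, and the share of all named genes without overlap was not counted. Gbp2, the brightest probe of the family, read 10.05 in PyMT-Br 1 and 12.13, 12.39 and 12.29 in PyMT-Br 2 to 4, against 9.31, 9.14 and 9.69 in PyMT-S. Its difference of 2.33 ± 0.48 (adjusted p = 0.00882) was lost in 12 of 14 fits without 1 array. Dim further probes of Gbp2 and Gbp5 did not pass (-0.24 ± 0.35 and 0.14 ± 0.33), whereas the second probe of Gbp2 was called (2.77 ± 0.52).

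Ifi205 read 5.75, 7.66, 8.79 and 7.83 in PyMT-Br and 4.51, 2.03 and 3.70 in PyMT-S, a difference of 4.10 ± 0.68 (adjusted p = 0.00261). The value in PyMT-S 2 was the lowest of the 14, and without that array the difference was 3.40 ± 0.68 (adjusted p = 0.00766). Further probes of Ifi205 gave 0.96 ± 0.34 and 1.30 ± 0.31 and were not called. Ifi207 read 11.70, 10.99, 11.87 and 11.89 against 9.95, 8.76 and 9.88 (2.08 ± 0.31, adjusted p = 0.00139). Bst2 (tetherin, which holds budding virus at the membrane) read 8.26, 8.56, 9.87 and 9.89 against 7.30, 5.59 and 7.04 (2.50 ± 0.48, adjusted p = 0.00591). Ifi30, a lysosomal thiol reductase for antigen processing that interferon gamma induces, read 12.22, 12.34, 12.60 and 12.54 against 11.04, 8.87 and 10.97 (2.13 ± 0.43, adjusted p = 0.00825). Without PyMT-S 2 its difference was 1.42 ± 0.20. The calls of Bst2 and Ifi30 were each lost in 10 of 14 fits without 1 array, and Gbp3, Gbp5, Gbp7, Ifi205, Ifi207 and Ifitm6 passed in all 14.

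Ifitm6 was the gene called lower. It read 5.28, 5.96, 6.76 and 6.81 in PyMT-Br against 11.51, 12.87 and 10.63 in PyMT-S, a fall of 44.2-fold (-5.47 ± 0.50, adjusted p = 6.27e-05). The neutrophil list fell in the same comparison, with 7 of 10 genes called lower. In EO771-Br that list was also low, at 6.33 and 6.24, and Ifitm6 read 10.68 and 10.31. The monocyte marker Ly6c1 was lower in PyMT-Br than in EO771-Br too, with 6.87, 8.15, 10.11 and 9.56 in PyMT-Br and 13.66 and 13.85 in EO771-Br. The rest of the monocyte list, Ccr2, Cd14 and Csf1r, overlapped between these conditions. Ccr2, for example, read 8.04, 7.19, 7.91 and 8.86 against 7.35 and 7.91.

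The Ifit, Mx, Isg15, Oas, sensor and transcription factor families had 0 of 26 genes called in PyMT-Br minus PyMT-S. Of all named genes, 3.63% were called higher there and 2.45% lower, so few calls would fall among 26 genes at that share. Isg15 read 8.03, 9.19, 10.67 and 9.20 in PyMT-Br and 7.80, 7.89 and 7.94 in PyMT-S, and Usp18 read 7.92, 8.93, 10.52 and 9.57 against 8.32, 8.46 and 8.03. Mx1 read 4.66, 5.54, 6.59 and 5.05 against 3.98, 4.44 and 4.30. Rsad2 overlapped, at 8.79, 9.27, 10.47 and 9.56 against 8.86, 9.89 and 9.66. The nearest misses among the 64 were Ifi47, an immunity-related GTPase (1.85 ± 0.40, adjusted p = 0.0118), and Gbp2b (2.56 ± 0.60, adjusted p = 0.018).

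The 4 PyMT-Br arrays differed among themselves in these genes. PyMT-Br 1 was the lowest of the 4 in 43 of the 64 genes, against 26.1% of all genes, and PyMT-Br 3 was the highest in 38, against 28.1% of all genes. Ifit3, for example, read 8.24, 9.74, 10.97 and 9.63, and Irf7 read 5.94, 7.85, 8.78 and 8.16. The neutrophil list ran in the same order, with 6.16 in PyMT-Br 1, 7.48 in PyMT-Br 2, 8.15 in PyMT-Br 4 and 9.15 in PyMT-Br 3. T cell markers (3 genes), from 4.07 to 6.33, also ranked the arrays in this order. The mean of NK markers (3 genes), from 3.95 to 5.32, did so through Nkg7 alone. Nkg7 read 4.54, 5.70, 7.48 and 6.43 in PyMT-Br 1 to 4 and 8.96 to 10.10 in marrow. Klrb1c was highest on PyMT-Br 4, at 5.41, and Ncr1 was dim. B cell markers (2 genes) ran from 5.17 to 5.83 in another order. The part of these cells in the order of the 64 genes was not tested. Epithelial markers (4 genes), which tumor cells could bring, averaged 6.39, 6.72, 5.40 and 6.12 in PyMT-Br 1 to 4, 5.12 and 4.84 in EO771-Br and 3.83 to 4.41 elsewhere.

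PyMT-Br against its 1 marrow array gave fewer calls, with the spread taken from the other conditions. PyMT-Br minus PyMT-BM called 3 of the 64 genes higher and 1 lower, where 0.997% of all named genes were called higher and 0.887% lower. These were Ifi207 (3.22 ± 0.46), Gbp5 (2.90 ± 0.44), Gbp7 (2.12 ± 0.29) and Ifitm6 (-5.94 ± 0.74), and all 4 were also called against PyMT-S, which shares the PyMT-Br arrays. Without PyMT-Br 1 the count was 7, and without PyMT-S 2 it was 8.

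Across the models, 4 genes were called higher against spleen in both, namely Gbp5, Gbp7, Ifi205 and Ifi207. They were 50% of the 8 called in PyMT-Br minus PyMT-S and 18.2% of the 22 called in EO771-Br minus naïve-S, and these comparisons share no array. Over all named genes 162 were called higher in both, which is 23.4% of the 691 called in the first and 50.5% of the 321 called in the second.

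**Figure D3:**
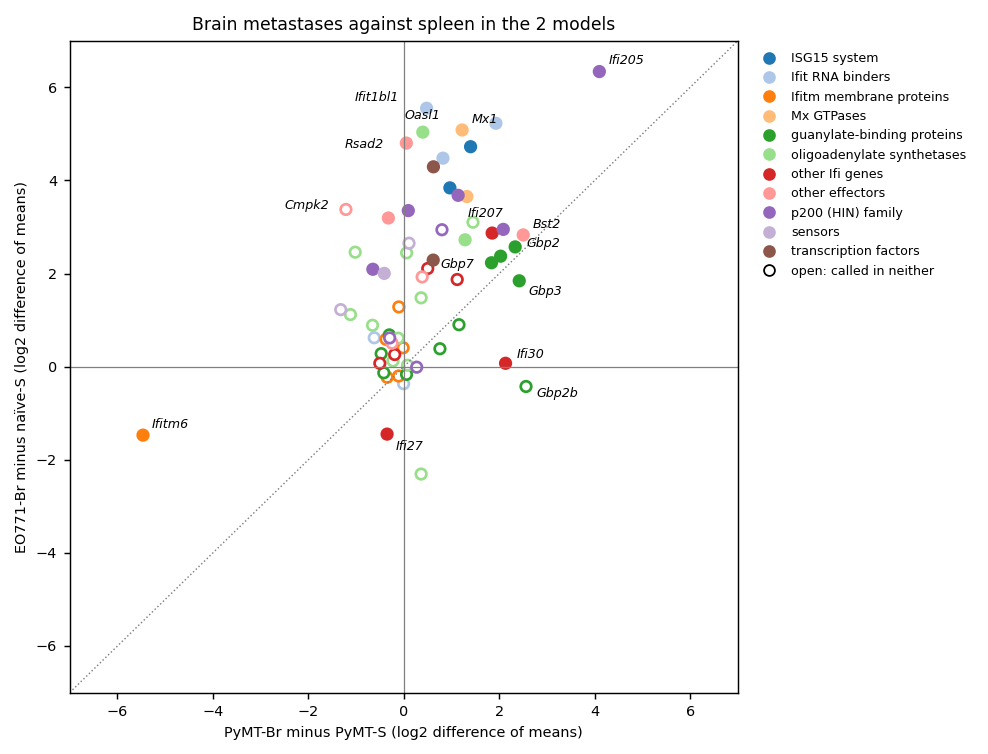
Each point is 1 of the 64 genes, with its log2 difference PyMT-Br minus PyMT-S on the x axis and EO771-Br minus naïve-S on the y axis, coloured by family. Filled points were called in at least 1 of these comparisons, open points in neither, and the dotted line marks equal differences. Oasl1 and Rsad2 lie high and near 0 on the x axis, Mx1 lies as high at 1.22, Gbp2, Gbp3 and Gbp7 lie near the dotted line, and Ifitm6 lies far to the left.

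Set against each other directly, the BrM of both models gave calls in every family except the guanylate-binding proteins. PyMT-Br minus EO771-Br called 1 of the 64 genes higher and 24 lower, where 0.819% of all named genes were called higher and 1.12% lower. The median of the 64 was -1.54, and that of all genes was 0.06. All 24 genes called lower had every PyMT-Br array below both EO771-Br arrays. The same arrays gave these calls, so this is no separate support, and the share over all named genes was not counted. Leaving out EO771-Br 1 or EO771-Br 2 left 3 and 5 calls, and leaving out PyMT-Br 2 or PyMT-Br 4 left 12 and 16.

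The largest gap was that of Ifit1bl1, with 4.16, 5.28, 6.68 and 5.87 in PyMT-Br against 10.92 and 10.91 in EO771-Br (-5.41 ± 0.73, adjusted p = 0.00225). Mx1 was 24.9-fold lower in PyMT-Br (-4.64 ± 0.44, adjusted p = 0.00035). Cmpk2 read 5.62, 6.60, 7.58 and 6.84 in PyMT-Br (-4.49 ± 0.57, adjusted p = 0.00177). Oasl1 was 20.6-fold lower (-4.37 ± 0.38, adjusted p = 0.000308). Both Mx genes, both genes of the Isg15 system, all 3 sensors and both transcription factors were called lower, and so were 3 of 5 Ifit genes. For some genes called lower, the control spleens pointed the same way without being called. Ifi47, Ifi27l2a and Oasl2 averaged 5.74, 9.39 and 8.60 in PyMT-S against 7.63, 10.95 and 10.46 in naïve-S. Oasl1 and Rsad2 pointed the other way, at 6.26 and 9.47 against 5.99 and 8.92. Over the 64 genes, PyMT-S was below naïve-S in 42 and above it in 22 (median -0.32). Of the sensors, Ddx58 (RIG-I) and Ifih1 (MDA5), which detect viral RNA in the cytoplasm, fell by 2.98 and 2.16 on the log2 scale. Ifitm6 was lower by -4.29 ± 0.57, together with 1 of 4 monocyte markers, Ly6c1, and with 0 of 10 neutrophil markers called. The gene called higher was Ifi27, at 11.04, 10.86, 10.77 and 11.24 in PyMT-Br (1.38 ± 0.23, adjusted p = 0.00628), and its second probe was not called (0.69 ± 0.26).

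No guanylate-binding protein was called between the models by its brightest probe, and their median difference was -0.57. Gbp7 differed by 0.18 ± 0.23, Gbp3 by -0.57 ± 0.43 and Gbp2 by -0.65 ± 0.54. Gbp2b pointed the other way from most families, at 6.06, 7.20, 6.00 and 7.64 in PyMT-Br and 3.14 and 4.17 in EO771-Br (3.07 ± 0.68, adjusted p = 0.0226). Gbp5 was lower in PyMT-Br by its brightest probe without passing (-1.62 ± 0.34, adjusted p = 0.018) and passed by its second, dim probe (-2.09 ± 0.37, adjusted p = 0.00867). Ifi205 missed the threshold by its brightest probe (-4.02 ± 0.77, adjusted p = 0.0122), but passed by its other probes (-3.79 ± 0.38 and -2.93 ± 0.35).

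**Figure D4:**
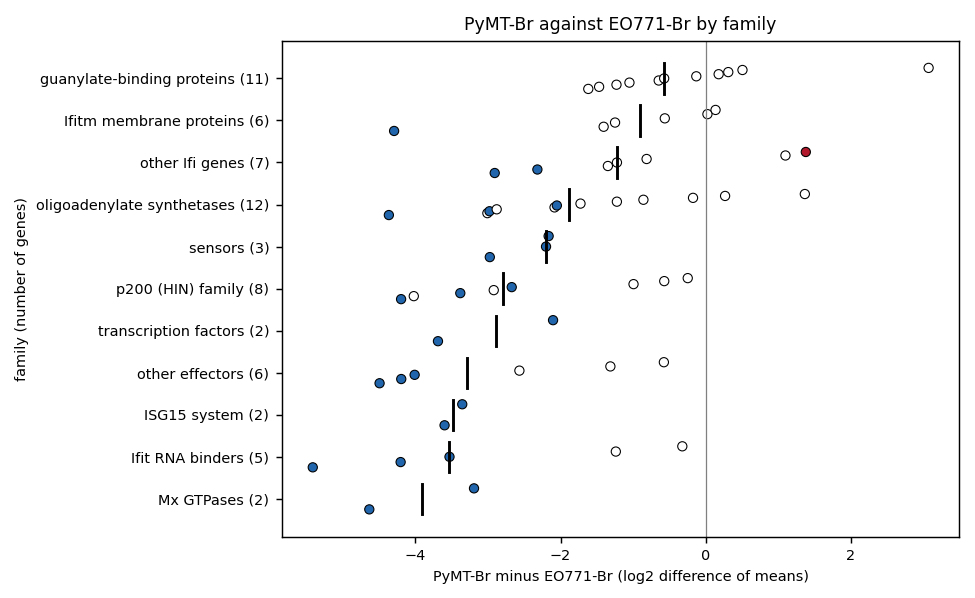
Log2 difference PyMT-Br minus EO771-Br (x axis) of each of the 64 genes (points), by family (y axis, number of genes in brackets), with the family median as a bar. Blue points were called lower in PyMT-Br, the red point (Ifi27) higher, and open points were not called. The guanylate-binding proteins have the family median nearest 0, and none of the 11 is called.

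Between spleens and marrow none of the 64 genes was called. PyMT-S minus naïve-S called 0 of the 64 genes in either direction by limma, where 0.0105% of all named genes were called higher and 0.0682% lower, and at an unadjusted p under 0.05 it had 1 higher and 9 lower, against 10.9% and 8.86% of all named genes. The smallest adjusted p values were those of Ifi27l2a (-1.57 ± 0.37, adjusted p = 0.0466) and Ifi47 (-1.89 ± 0.48, adjusted p = 0.0605). PyMT-BM minus naïve-BM, with 1 array on the tumor side, also called 0, where 0% of all named genes were called higher and 0.021% lower, and had 2 higher and 1 lower at an unadjusted p under 0.05 (3.63% and 5.38% of all named genes). Naïve-S minus naïve-BM called 0, where 0% of all named genes were called in each direction, and had 9 higher and 4 lower at an unadjusted p under 0.05 (9.59% and 8.49% of all named genes). Without PyMT-S 2, whose spread enters the fit, this last comparison called Ifi30, Gbp3, Gbp5 and Ifi207 higher in spleen and Ifit1bl2 lower.

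Whether the effect of BrM over spleen itself differed between the models was tested as PyMT-Br minus PyMT-S less EO771-Br minus naïve-S. This test called 0 of the 64 genes higher and 1 lower, where 0.0105% of all named genes were called higher and 0.0315% lower. The gene was Oasl1 (-4.64 ± 0.55, adjusted p = 0.00949), and its call was lost in 11 of 14 fits without 1 array, with a largest adjusted p of 0.0676. Further probes of Oasl1 gave -3.97 ± 0.62 and -4.07 ± 0.67 and were not called. Rsad2 (-4.75 ± 0.60, adjusted p = 0.0124) and Ifi211 (-2.74 ± 0.37, adjusted p = 0.0143) came next. The median of the 64 genes was -1.18, and at an unadjusted p under 0.05, 28 were lower and 3 higher, against 5.87% and 6.91% of all named genes. For the other genes, a call in 1 model and none in the other is not shown to be a difference.

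Of the ligands, 19 interferon genes were measured and none was called in any comparison. In each condition 9 to 12 of the 19 had a mean below the median of all values. The lack of calls therefore cannot show that no ligand changed. Ifnb1, the type I interferon that fibroblasts and macrophages make first, read 7.39 in PyMT-Br 1 and 3.87, 3.28 and 3.26 in PyMT-Br 2 to 4, so the array with the highest value was the one lowest in most of the 64 genes. It read 5.09 and 4.74 in EO771-Br and 3.48 and 3.24 in naïve-S (EO771-Br minus naïve-S 1.55 ± 1.31, adjusted p = 0.669). Ifng lay between 2.50 and 4.82 on the 14 arrays, around the median of the array. Plasmacytoid dendritic markers (5 genes), of a cell type known for type I interferon, averaged 5.56 to 5.82 in PyMT-Br, 5.45 and 5.78 in EO771-Br, 4.89 to 5.44 in PyMT-S, 6.07 and 6.32 in naïve-S and 5.08 to 5.40 in marrow. Of these markers, 1 was called higher in PyMT-Br than in PyMT-S, Cox6a2 (2.72 ± 0.32, adjusted p = 0.000314), where 3.63% of all named genes were called higher. The median difference of the 5 genes was 0.02. Siglech overlapped, at 3.79, 5.40, 4.33 and 5.56 in PyMT-Br against 5.72, 5.42 and 4.41 in PyMT-S.

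Among 6 receptor genes, Il10rb, a shared chain of the interleukin-10 and lambda interferon receptors, was called lower in PyMT-Br than in EO771-Br (-2.59 ± 0.38, adjusted p = 0.00357). It averaged 7.22 in PyMT-Br, with every array below the 9.91 and 9.69 of EO771-Br. The controls pointed the same way without being called, with 7.13, 7.12 and 6.04 in PyMT-S against 9.06 and 9.20 in naïve-S (-2.37 ± 0.40, adjusted p = 0.0162) and 6.69 in PyMT-BM against 8.90 and 8.66 in naïve-BM. The test of the difference of the effects gave -0.22 ± 0.56 for Il10rb (adjusted p = 0.919). Ifnlr1, the other chain of the lambda interferon receptor, was called lower in EO771-Br than in naïve-BM, at 5.51 and 6.52 against 10.88 and 10.87 (-4.86 ± 1.00, adjusted p = 0.00978), and read 4.54 to 7.66 in PyMT-Br. Ifnar1 was dim, between 0.29 and 4.17. None of 7 signalling genes was called. Irf9, the DNA-binding partner of Stat2, read 10.25 and 10.32 in EO771-Br and 8.60, 9.28, 9.52 and 9.42 in PyMT-Br (PyMT-Br minus EO771-Br -1.08 ± 0.30, adjusted p = 0.0533), and both EO771-Br arrays were above the 4. Of 5 negative regulators, Socs3 was called higher in PyMT-Br than in PyMT-S (1.67 ± 0.30, adjusted p = 0.00416). Among 11 sensing genes, Irf5, Tlr3 and Tlr9 were called higher in EO771-Br than in naïve-BM, by 1.93 to 2.54, and none was called in the comparisons with spleen or between the models.

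Interferon gamma targets and antigen presentation genes (20 genes) were measured next. The list had 2 genes called higher in PyMT-Br minus PyMT-S, 0 in PyMT-Br minus PyMT-BM, 1 in EO771-Br minus naïve-S, 3 in EO771-Br minus naïve-BM and 2 lower in PyMT-Br minus EO771-Br. The shares of all named genes called in these directions were 3.63%, 0.997%, 1.68%, 3.07% and 1.12%. Cxcl9, a T cell attractant that depends largely on interferon gamma, read 10.07, 12.99, 12.94 and 12.81 in PyMT-Br and 8.07, 6.98 and 7.45 in PyMT-S (4.70 ± 0.66, adjusted p = 0.000978). In EO771-Br it read 7.72 and 9.38, below all PyMT-Br arrays and overlapping naïve-S at 8.77 and 7.98 (0.17 ± 0.87, adjusted p = 0.969). Cxcl10, which binds the same receptor and also answers type I interferon, was highest in EO771-Br, at 12.48 and 12.97 against 5.59 and 4.96 in naïve-S (7.45 ± 0.80, adjusted p = 0.00035). It also rose in PyMT-Br, at 8.02, 9.45, 11.51 and 9.24 against 5.99, 5.36 and 5.08 (4.08 ± 0.61, adjusted p = 0.00139). Directly between the models, Cxcl9 (3.65 ± 0.75, adjusted p = 0.0162) and Cxcl10 (-3.17 ± 0.69, adjusted p = 0.021) had opposite signs and neither passed. The genes called lower in PyMT-Br than in EO771-Br were H2-K1, a class I antigen presenting molecule (-2.19 ± 0.37, adjusted p = 0.00655), and Tgtp1, an interferon-induced GTPase (-1.87 ± 0.31, adjusted p = 0.00632). H2-K1 read 8.33, 9.05, 9.20 and 9.04 in PyMT-Br and 11.18 and 11.02 in EO771-Br. The spleens pointed the same way without being called, at 8.46, 7.37 and 8.80 in PyMT-S against 10.18 and 10.09 in naïve-S (-1.93 ± 0.39, adjusted p = 0.0284), and the difference of the effects was -0.26 ± 0.54 (adjusted p = 0.895).

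**Figure D5:**
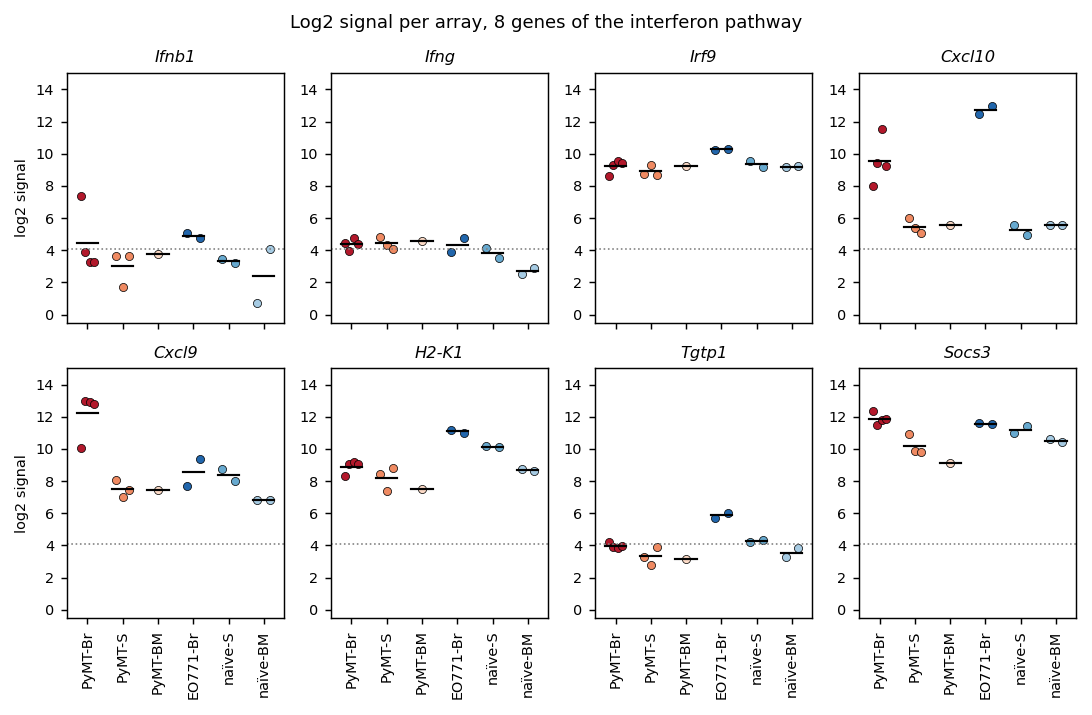
Log2 signal per array (points) with the condition mean (bar) for 8 genes of the interferon pathway in the 6 conditions, and the median of all values as a dotted line. Cxcl9 is highest in the 4 PyMT-Br arrays, Cxcl10 and H2-K1 are highest in the 2 EO771-Br arrays, and Ifnb1 is highest on PyMT-Br 1.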

How the data were processed

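Biotin-labelled RNA of sorted GFP+CD11b+ cells had been hybridised to Illumina MouseWG-6 v2 bead arrays. The authors deposited log2 values after background correction and quantile normalization. The submitters' processing notes name GenomeStudio 2011.1 and limma, without a version, and the method of background correction is not given in the sources used here. Each sorted array followed the same distribution to within 0.00192. Of 45281 probes, 34885 carried 1 gene symbol in the platform annotation, 18 several and 10378 none, and only the first kind was used, 105 of them for the 64 genes. No detection filter was applied, an array has no read depth, and precision is limited by how many arrays there were.

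The members and gene lists were chosen with earlier results of these data known. R 4.3.3 and limma 3.58.1 were used: lmFit with a mean for each of 6 conditions over 14 arrays, eBayes without trend (8 residual and 3.90 prior degrees of freedom), two-sided, Benjamini-Hochberg over all probes, threshold 0.01. Background counts used 1 brightest probe per gene. ± is limma's moderated standard error. Ifi211, Ifi213 and Ifi214 were counted with the p200 family. Values in every array were given for the largest called differences of each comparison and the brightest gene of each family. Further genes shown array by array, such as Isg15, Mx1 in PyMT-Br and Gbp2b, were chosen after their values were seen. Alternatives covered scaling, dim probes, variance models, the methods' t-test, blocks, probe averaging, averaged naïve-BM arrays, pooled controls and leaving out each array. Fits were tested on simulated data. No block was used in the main fit because the study states none. Deviations of same-code BrM and spleen arrays from their condition means had correlations of -0.06, -0.03 and -0.00. With few spleen arrays, among them PyMT-S 2, these values cannot decide whether the arrays are paired.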

Additional observations from a re-analysis of the deposited data

Results flagged for a closer look

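Of the 64 genes, 4 had 1 of the 4 PyMT-Br arrays far from the others by the gap to the nearest of them relative to the range, where chance gives about 1 in 20. Gbp2 was low on PyMT-Br 1, at 10.05 against 12.13 to 12.39. Oasl1 was low on the same array, at 5.76, with 6.91 the nearest value of the others. Ifi204 was also low there, at 3.29 against 3.95 to 4.04, and is dim in PyMT-Br. Oas1f was low on PyMT-Br 3, at -0.50 against 3.11 to 3.49, and is dim on all arrays.

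The effect of BrM over spleen differed between the models for Oasl1, by -4.64 ± 0.55 on the log2 scale (limma adjusted p = 0.00949), with a positive difference in both models (0.40 in PyMT and 5.04 in EO771). The call was lost in 11 of 14 fits without 1 array (largest adjusted p 0.0676), and with a robust variance, with only the arrays compared, with probes averaged, with the naïve-BM arrays averaged and with the title number as a block.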

How the results depend on the processing

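Under 15 alternatives no named difference of the 64 genes changed sign. Several of them could not change a sign, because they alter only the spread, the threshold or the probes tested. Among these are the variance models, the methods' t-test, the 0.05 threshold, the filter on dim probes and using only the arrays compared. PyMT-Br minus PyMT-S (9 calls) gave 2 with only the arrays compared, 0 and 18 by the methods' t-test with and without adjustment, 16 at an adjusted p under 0.05, and 6 to 11 leaving out 1 array. PyMT-Br minus PyMT-BM (4 calls) gave 2 with only the arrays compared, 7 at 0.05 and 3 to 8 leaving out 1 array. EO771-Br minus naïve-S (23) gave 15 with only the arrays compared, 0 and 43 by the methods' t-test and 4 to 30 leaving out 1 array. EO771-Br minus naïve-BM (29) gave 0 and 44 by that test, 14 with the naïve-BM arrays averaged and 14 to 32 leaving out 1 array. PyMT-Br minus EO771-Br (25) gave 11 with only the arrays compared, 0 and 44 by that test and 3 to 28 leaving out 1 array. PyMT-S minus naïve-S (0) gave 5 by the unadjusted test and 1 at 0.05, naïve-S minus naïve-BM (0) gave 16 by that test and 0 to 5 leaving out 1 array. The difference of the effects (1) gave 3 each with centring on 9 reference genes, a filter on dim probes and a variance trend, 7 at 0.05, 0 each with a robust variance, only the arrays compared, probes averaged and naïve-BM averaged, and 0 to 2 leaving out 1 array.

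With the title number as a replicate block the counts were 4, 0, 13, 6 and 0 for PyMT-Br minus PyMT-S, PyMT-Br minus PyMT-BM, EO771-Br minus naïve-S, PyMT-Br minus EO771-Br and the difference of the effects. The mouse code as a fixed replicate block over 3 pairs gave 1 for PyMT-Br minus PyMT-S. What the title numbers and mouse codes stand for is not described, and a shared code may mark the same mouse. The mouse code as a random block (correlation 0.02) kept all 60 named calls. Fewer arrays and fewer degrees of freedom come with several of these settings, and the cause of the changes in the counts was not tested. Centring on reference genes moved the median of all genes to -0.20 in PyMT-Br minus PyMT-S, to 0.24 in PyMT-BM minus naïve-BM and to -0.21 in the difference of the effects, and moved the median of the 64 genes in the first of these from 0.19 to -0.00, which is a change of sign. Dim probes rest on signal near background.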
